A study of Homo sapiens with 41 samples.

Results

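The 7 genes described here, NRAS, BRAF, ARAF, KSR1, MAP2K1, MAP2K2 and MAPK3, belong to the RAS, RAF, MEK and ERK cascade. They were taken by symbol, as the rows of that name, out of 21375 symbols listed in all 6 expression tables of a study of tumour cells under drugs against their driver oncogene. RNA was sequenced from 41 samples in 15 groups. All 7 members passed the filter on low values, a mean of at least 10 normalised reads, in every table.

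In this cascade, a receptor at the cell surface loads RAS proteins with GTP, RAS recruits RAF kinases to the membrane, RAF phosphorylates the MEK kinases, and MEK phosphorylates the ERK kinases, which enter the nucleus and change transcription. NRAS is one of the RAS GTPases and no kinase; BRAF and ARAF are RAF kinases; KSR1 is a scaffold, related to RAF, that holds RAF, MEK and ERK together; MAP2K1 and MAP2K2 encode MEK1 and MEK2; MAPK3 encodes ERK1. Many melanomas carry a mutant BRAF that signals without RAS, and vemurafenib inhibits it, while crizotinib inhibits ALK, a receptor upstream of RAS. The cascade is regulated largely at the protein level, by phosphorylation, which RNA does not show.

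A375, Colo800 and UACC62 are melanoma cell lines and H3122 is a lung adenocarcinoma line. In culture, A375 cells had vehicle, or vemurafenib at 0.1 µM for 6 h or for 48 h, with 3 samples each. Colo800 and UACC62 cells had vehicle or vemurafenib at 1 µM for 48 h, and H3122 cells vehicle or crizotinib at 0.3 µM for 48 h, with 2 samples each. All cultures were kept in medium with reduced serum during treatment, vehicle included. Mice with A375 tumours under the skin received vehicle or vemurafenib, in 10 doses of 75 mg/kg, with 4 samples each. A375R tumours, from the drug-resistant line, had the same treatments, with 3 samples each, and grew either from A375R cells alone or, as the titles and the growth protocol were read, from A375R mixed with A375 cells. Tumour RNA was bound to ribosomes and was pulled down through a tagged ribosomal protein, RPL10a, whereas culture RNA was whole RNA. The titles of all A375R tumours, mixed ones included, name A375R with RPL10a, but the protocols do not say whether A375 cells in mixed tumours had the tag too. The labels do not give the mouse strain, whether A375R is 1 clone, or whether each sample had its own culture or mouse. The tests therefore rest on variation among these libraries, part of which could be technical.

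Each library held between 8063754 and 42843612 recovered reads, and libraries of 1 group differed by more than sampling noise. In A375 tumours, 3 of 4 vehicle libraries were shallower, at 8063754 to 9452652 reads, than all 4 drug libraries. Markers were checked against the labels: H3122 vehicle cultures had the lung genes NKX2-1 and EPCAM at means of 3285 and 6925 normalised reads, and SOX10, of the melanocyte lineage, at 0.489. TYR and DCT, pigment genes of melanocytes, were at 0 in every A375 and A375R vehicle tumour library, and SOX10, with each library scaled to a total of 1000000, was at 59.2 ± 12.4 (SD, n = 4) in A375 tumours and 2.75 ± 1.02 (n = 3) in tumours of A375R alone. As a check of the drugs, all 11 genes of a list of ERK output genes (DUSP4, DUSP6, SPRY2, SPRY4, ETV4, ETV5, PHLDA1, FOSL1, CCND1, EGR1 and IER3) fell in each of the 5 culture comparisons with vehicle, and 10 of 11 fell in A375 tumours. IER3 alone fell in A375R tumours grown alone, and SPRY4 alone in mixed tumours.

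The upstream sequence is shown for 3 of the members that changed with vemurafenib in more than 1 setting: MAP2K1, which fell, MAPK3, which rose, and NRAS, whose direction differed between lines. Each is the 250 bases before the first start that RefSeq lists for the gene (GRCh38.p14), written 5′ to 3′ on the gene's strand. MAP2K1 lies on the plus strand (chr15:66386662-66386911), MAPK3 on the minus strand (chr16:30123221-30123470) and NRAS on the minus strand (chr1:114716772-114717021). Capitals mark matches, on both strands, to the ETS core CCGGAA, the AP-1 site TGANTCA, the CRE core TGACG and the E-box CACGTG.
MAP2K1: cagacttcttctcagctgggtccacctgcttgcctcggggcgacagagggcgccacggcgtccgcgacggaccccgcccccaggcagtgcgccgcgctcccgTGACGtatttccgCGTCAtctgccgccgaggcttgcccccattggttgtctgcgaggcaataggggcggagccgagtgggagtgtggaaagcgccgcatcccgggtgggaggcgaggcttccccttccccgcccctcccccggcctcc
MAPK3: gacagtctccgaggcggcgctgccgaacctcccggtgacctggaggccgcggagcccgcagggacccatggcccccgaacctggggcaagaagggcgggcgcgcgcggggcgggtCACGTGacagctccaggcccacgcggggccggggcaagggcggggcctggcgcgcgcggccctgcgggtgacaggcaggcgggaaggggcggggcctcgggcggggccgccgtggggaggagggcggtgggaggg
NRAS: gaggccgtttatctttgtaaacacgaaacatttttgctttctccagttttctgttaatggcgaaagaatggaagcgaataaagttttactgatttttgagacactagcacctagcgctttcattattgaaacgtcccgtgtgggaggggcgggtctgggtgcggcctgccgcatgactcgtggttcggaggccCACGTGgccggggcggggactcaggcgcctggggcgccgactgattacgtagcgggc

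MAP2K1 held 2 CRE cores, 148 and 135 bases before the start, and MAPK3 and NRAS each held 1 E-box. Of 35116 RefSeq promoter windows of this length, 21.2% held a CRE core, 6.34% an E-box, 14.5% an ETS core and 6.57% an AP-1 site. None of these 3 windows held an ETS core or an AP-1 site in these letters, and no matches overlapped. Among the other members, ARAF had 1 ETS core and 1 CRE core, BRAF had 1 CRE core, and KSR1 and MAP2K2 had no match to these 4 motifs. The GC box GGGCGG, left in lower case, was present in 42.6% of all windows; it occurred 6 times before MAPK3, 3 times before MAP2K1 and before KSR1, and 2 times before MAP2K2 and before NRAS. The promoter table lists 2 starts for MAP2K1 and MAP2K2 and 3 for KSR1, of which the first was read, and these data do not show which start was used.

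To set levels of 1 gene side by side, each library was scaled to a total of 1000000 over the genes listed in all tables. The 6 tables were normalised separately, so these levels are a description with no test, and levels of different genes are not compared because transcript lengths differ. Tumour RNA was ribosome-bound and culture RNA whole, so between tumours and cultures, growth in a mouse and the kind of RNA cannot be told apart. In bulk samples, fewer cells that express a gene and less RNA of it per cell cannot be told apart.

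NRAS, the GTPase, was highest in vehicle-treated A375 tumours, at 192 ± 16.8 per 1000000 (SD, n = 4), and next in Colo800 cultures, at 179 ± 4.19 (n = 2), and the libraries of these groups overlapped. Mixed tumours (147 ± 27.2, n = 3) overlapped with both Colo800 and UACC62 (144 ± 0.289, n = 2), and also with A375 tumours and A375 cultures. A375 cultures (121 ± 9.55, n = 3), H3122 cultures (109 ± 10.3, n = 2) and tumours of A375R alone (106 ± 13.1, n = 3) came last, each overlapping the next in order.

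BRAF was highest in A375R tumours, at 24.7 ± 1.13 per 1000000 alone and 21.7 ± 2.88 mixed, and these groups did not overlap with each other or with any other vehicle group. UACC62 (15.7 ± 0.324), A375 (13.6 ± 2.37) and Colo800 cultures (13.6 ± 0.103) overlapped in sequence. A375 tumours (10.1 ± 1.06) and H3122 cultures (9.26 ± 2.06) were lowest and overlapped. ARAF, the other RAF kinase here, had another order: A375 tumours were highest, at 118 ± 8.57, followed by A375 cultures at 92.9 ± 7.86, which overlapped with mixed tumours at 88.1 ± 18.8, and these with tumours of A375R alone. Tumours of A375R alone (75.5 ± 2.27), Colo800 (63.9 ± 0.560), UACC62 (45.3 ± 1.53) and H3122 (32.7 ± 2.73) followed, and none of these 4 overlapped with each other.

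KSR1, the scaffold, was highest in H3122 cultures, at 12.5 ± 1.19 per 1000000, then in Colo800 (9.07 ± 0.544) and UACC62 (7.41 ± 1.42), without overlap between neighbours. A375 cultures (4.36 ± 1.48), A375 tumours (3.35 ± 1.21), mixed tumours (1.47 ± 0.596) and tumours of A375R alone (1.02 ± 0.156) followed, each overlapping the next.

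MAP2K1 was highest in Colo800 cultures (130 ± 3.26 per 1000000), then in A375 cultures (108 ± 9.04) and A375 tumours (89.6 ± 7.05), with no overlap between neighbours. Mixed tumours (71.8 ± 4.88), UACC62 (67.2 ± 4.06) and A375R alone (66.5 ± 4.54) overlapped, and H3122 was lowest at 55.3 ± 0.380. MAP2K2, the other MEK, was highest in UACC62 (186 ± 0.0875) and next in A375R tumours, alone (170 ± 6.53) and mixed (161 ± 5.56), which overlapped. A375 tumours (123 ± 11.95), Colo800 (105 ± 2.83), A375 cultures (101 ± 29.0) and H3122 (73.1 ± 6.06) followed and overlapped in sequence.

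MAPK3 was highest in A375 tumours (90.8 ± 7.07 per 1000000) and next in mixed tumours (64.8 ± 7.95), without overlap. Colo800 (53.5 ± 0.570), A375 cultures (52.9 ± 9.86) and A375R alone (52.0 ± 1.67) overlapped, and so did UACC62 (45.6 ± 2.98) with H3122 (43.6 ± 5.17). A375 cultures, at 42.6 to 62.3, also overlapped with mixed tumours, UACC62 and H3122.

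**Figure D1:**
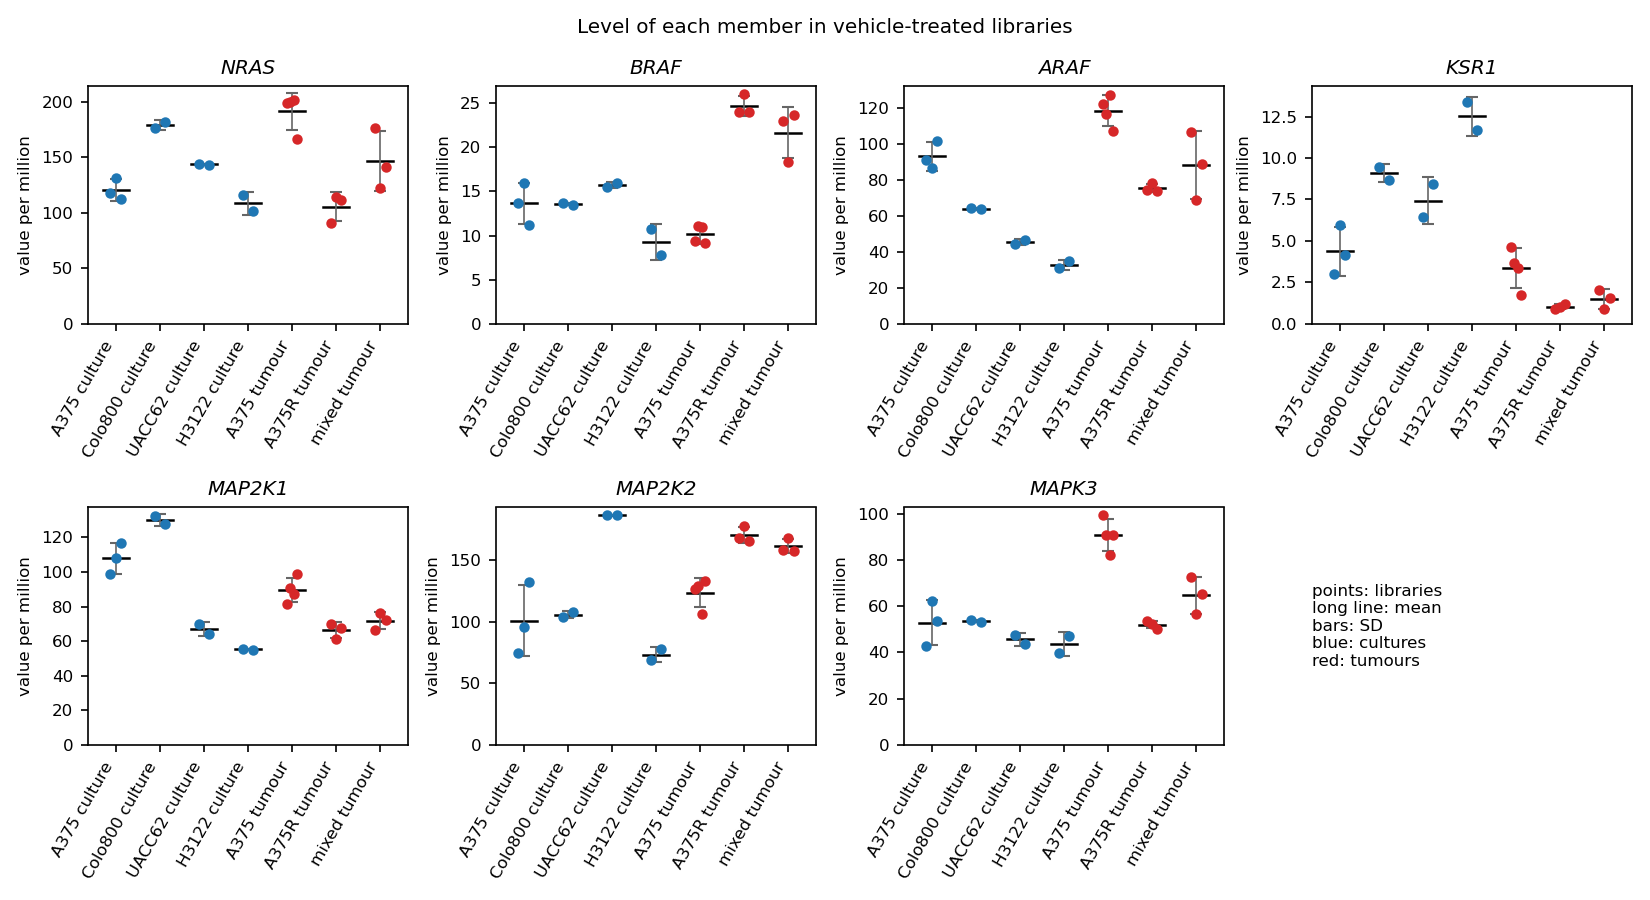
Each panel plots 1 member in vehicle-treated libraries, in values per 1000000 (points), with the mean (long line) and SD (bars), for 4 cultures (blue) and 3 tumour groups (red). BRAF is highest in A375R tumours at 24.7 ± 1.13, whereas KSR1 is lowest there at 1.02 ± 0.156.

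The ratio of 2 genes within a library does not depend on the scaling. BRAF over ARAF was 0.328 ± 0.0052 in tumours of A375R alone and 0.0858 ± 0.0077 in A375 tumours, both on vehicle, and the lowest ratio of the first group, 0.324, lay above the highest of the second, 0.0954. BRAF over ARAF also reached 0.346 ± 0.0045 in UACC62 cultures, so a ratio of that size was not limited to A375R.

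**Figure D2:**
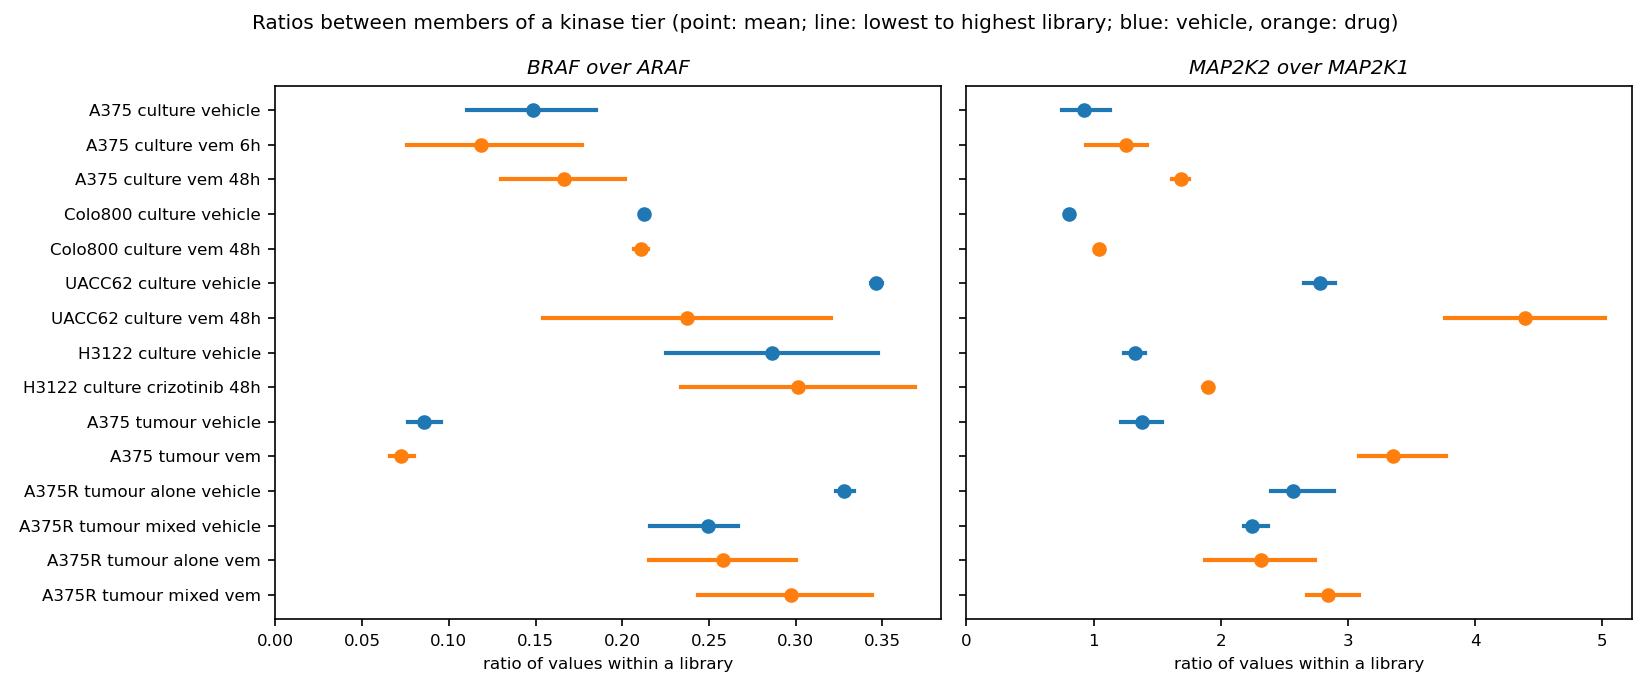
The ratio of the values of 2 genes of a tier within each library is plotted for all 15 groups, with the mean as a point and a line from the lowest to the highest library (blue, vehicle; orange, drug). MAP2K2 over MAP2K1 lies higher with drug in A375 tumours (3.36 ± 0.302 against 1.38 ± 0.138), and BRAF over ARAF lies higher in A375R tumours grown alone than in A375 tumours (0.328 ± 0.0052 against 0.0858 ± 0.0077).

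A375R tumours grown alone were set beside A375 tumours, both on vehicle. BRAF stood at 24.1 to 26.0 per 1000000 in the 3 A375R libraries and at 9.11 to 11.1 in the 4 A375 libraries, a ratio of 2.44 of the means (log2 1.28). MAP2K2 was also higher in all A375R libraries, with a ratio of 1.38. ARAF (0.638), MAP2K1 (0.743), MAPK3 (0.573), NRAS (0.550) and KSR1 (0.305) were lower in all of them. As background, 14.1% of 12894 genes were higher in all A375R libraries, 68.2% were lower and 82.3% were 1 or the other, and the median log2 ratio of all genes was -0.74, so the 5 lower members went with most genes. Of all genes, 96.3% had a smaller ratio than BRAF and 89.5% a smaller ratio than MAP2K2.

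Scaling by the median ratio in place of the total moved the median of all genes to 0.04. On that scale BRAF was 4.19 times and MAP2K2 2.36 times the A375 level, ARAF turned to 1.10, MAP2K1 turned to 1.28 with overlapping libraries, and MAPK3 (0.985), NRAS (0.946) and KSR1 (0.528) overlapped as well. EEF1A1, the top gene, took 3.01% of the total in A375R alone and 0.856% in A375 tumours, and its part in the gap between scales was not tested. The A375R table also lists another set of symbols, 21595 against 23368, with 220 found only there, and what a different annotation adds to these ratios was not tested.

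BRAF was then placed among its neighbours in the gene order of RefSeq (GRCh38.p14), a step chosen after its value was seen. Only protein-coding genes with a mean of at least 10 normalised reads in both tumour tables were counted as neighbours. DENND2A, 3 places away, was at 53.6 per 1000000 in A375R alone and 5.37 in A375 tumours, a log2 ratio of 3.32. On this scale of equal totals, ADCK2 (0.70), 2 places away, and MRPS33 (0.64), next to BRAF, were higher in all A375R libraries, and NDUFB2 (0.20), next to it on the other side, overlapped. On the side of MRPS33, AGK (-0.45) and KIAA1147 (-0.77), 2 and 3 places away, were lower in all libraries. SSBP1 (0.48), 4 places away on that side, was higher in all, and EPHB6 (-1.06), 5 places away, was lower in all. On the other side, MKRN1 (-0.14) and SLC37A3 (-1.63), 4 and 5 places away, were lower in all. The 10 neighbours up to 5 places away had a median log2 ratio of 0.03, with 4 higher and 5 lower in all libraries. The 20 up to 10 places away had a median of -0.34, beside -0.74 over all genes. Around the other members the median of 20 neighbours ran from -1.17 (MAPK3) to -0.36 (MAP2K2), so a median near that of BRAF was not limited to it. RNA levels do not show the number of gene copies, which was not measured.

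**Figure D3:**
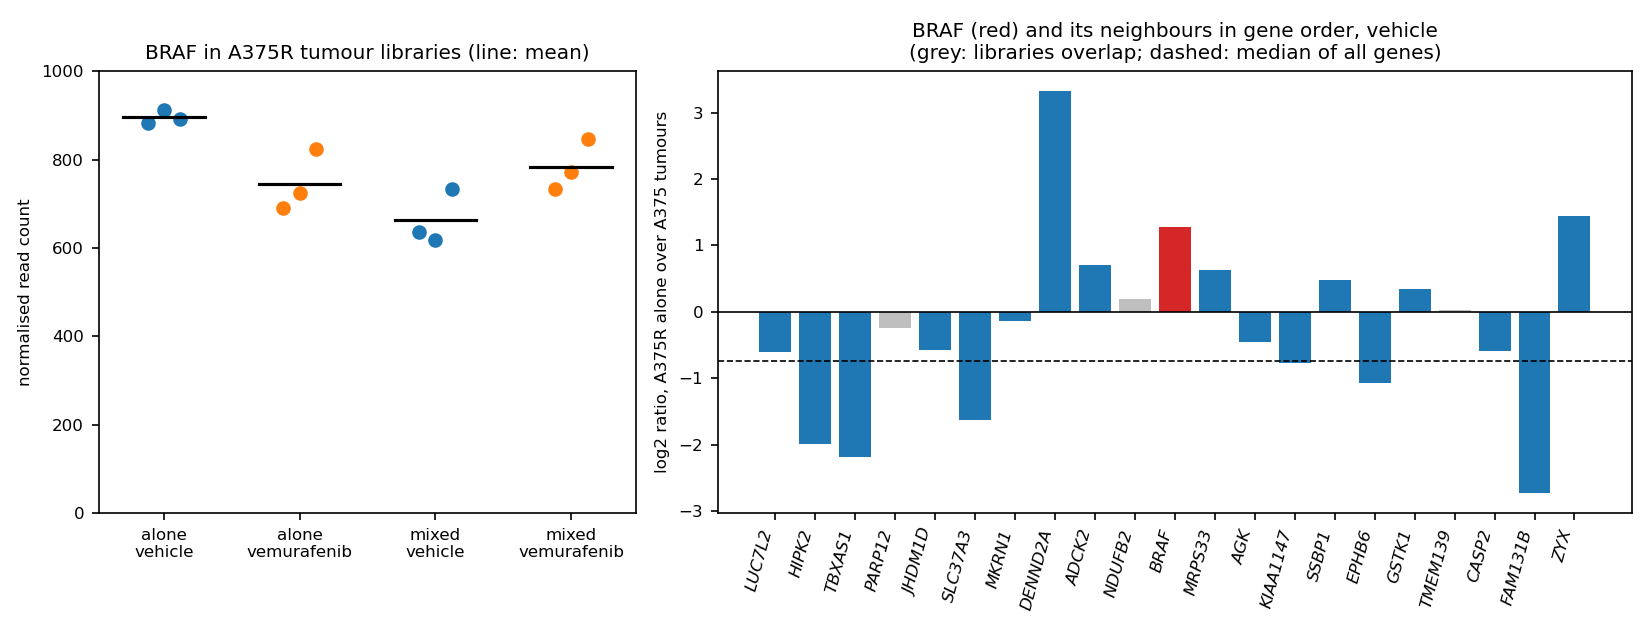
The left panel plots normalised read counts of BRAF in the 12 A375R tumour libraries with the mean of each group, and the right panel the log2 ratio of A375R alone over A375 tumours for BRAF (red) and 20 neighbours in gene order, with the median of all genes dashed. BRAF is lower in mixed than in single vehicle tumours (618 to 735 against 884 to 913), and DENND2A has the highest ratio of the neighbours, 3.32.

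The drug response was tested within each table with limma on log2(value + 1), with p-values adjusted over all genes tested and a threshold of 0.05, and changes below are log2 changes on that scale with their standard error. After 6 h of vemurafenib in A375 cells, 0 of 7 members passed by limma, beside 4.40% of all genes. By edgeR or DESeq2 0 passed as well, and 0 had an unadjusted p under 0.05 (limma). After 48 h, 2 of 7 passed beside 50.0% of all genes, and 1 of 7 passed in 48 h against 6 h, beside 39.3%. In Colo800, 5 of 7 passed beside 73.3%, in UACC62 4 of 7 beside 56.5%, in H3122 with crizotinib 1 of 7 beside 46.1%, and in A375 tumours 3 of 7 beside 68.3%. The members were thus called about as often as other genes or less often, and their counts are no result about them as a group. Their median change lay between 0.01 (H3122) and 0.31 (48 h against 6 h), beside medians of all genes from -0.01 to 0.00. Other markers moved with the drug as well: the melanocyte list summed to 92.7 to 137 per 1000000 in A375 vehicle tumours and 587 to 637 with drug. The fibroblast list summed to 79.4 to 109 and 34.1 to 42.6, and 2 of its 5 genes, PDGFRB and COL1A2, fell by the test. That list also summed to 105 to 109 in Colo800 and 102 to 111 in UACC62 vehicle cultures, so it does not mark fibroblasts alone. EEF1A1 took 0.856% and 1.41% of the total in these A375 tumours. The part of these shifts in the members' changes was not tested.

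**Figure D4:**
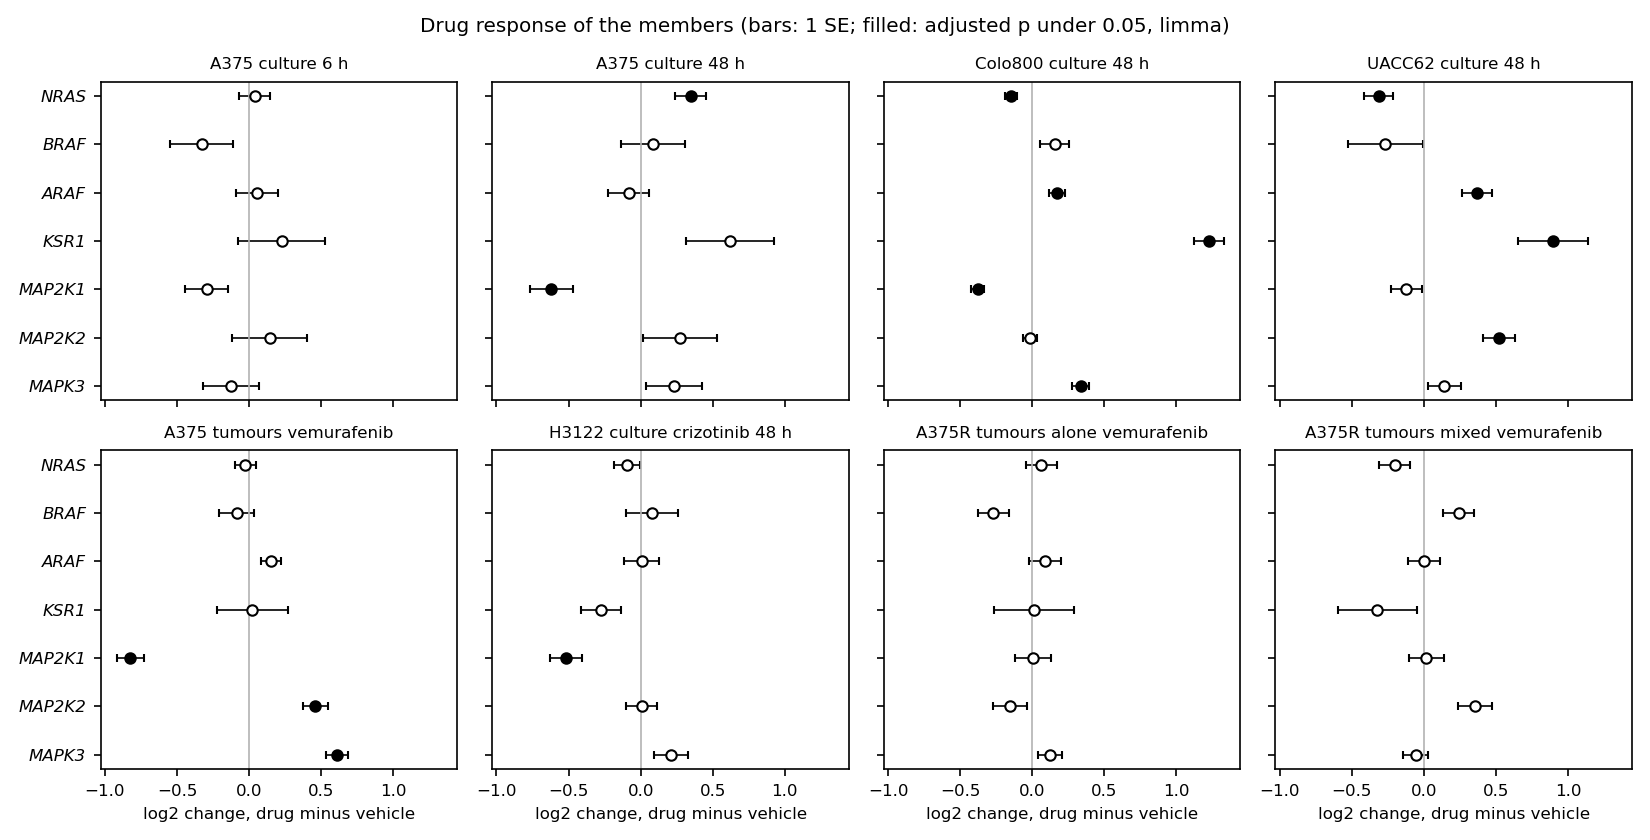
Each panel plots the log2 change (drug minus vehicle) of the 7 members in 1 comparison, with bars of 1 SE and filled points where the adjusted p of limma was under 0.05. MAP2K1 is below 0 and filled in 4 panels, with values from -0.82 to -0.38, and no point is filled in the A375R panels.

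With the values as deposited, NRAS went in opposite directions in the melanoma cultures. In A375 it stood at 1362, 1507 and 1329.5 normalised reads with vehicle and at 1623, 1757 and 1969 at 48 h, without overlap, and rose by 0.35 ± 0.11 (adjusted p 0.0212, limma). At 6 h, with 1392, 1407 and 1508, it had changed by 0.04 ± 0.11, and it rose from 6 h to 48 h by 0.31 ± 0.11 (adjusted p 0.0436, limma). In Colo800 it fell from 2565 and 2639 to 2375.5 and 2332.5, by -0.14 ± 0.04 (adjusted p 0.00503, limma). In UACC62 it fell from 1847 and 1829 to 1380.0 and 1584.5, by -0.31 ± 0.10 (adjusted p 0.0279, limma). A375 cells had a lower dose, 0.1 µM against 1 µM, so line and dose cannot be told apart.

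Calls on NRAS hung on single libraries and on the scaling. In A375 at 48 h it passed in 15 of 19 settings, and without vehicle library 1, vehicle library 3, drug library 2 or drug library 3 the adjusted p of limma was 0.0580, 0.0691, 0.0510 and 0.0994. The change from 6 h to 48 h passed in 10 of 19; without any 1 of 7 libraries the adjusted p of limma ran from 0.0517 to 0.175. In that comparison same-numbered samples varied together, although number 2 had its best match in number 3. With a replicate block MAP2K1 (-0.32, adjusted p 0.0198, limma) and MAPK3 (0.36, adjusted p 0.0317, limma) passed from 6 h to 48 h besides NRAS. In Colo800, the change of NRAS was -0.01 after quantile normalisation (adjusted p 0.780, limma) and 0.0023 with equal totals (adjusted p 0.962, limma), with overlapping libraries, where that scaling moved the median of all genes by 0.15. In UACC62 the fall was -0.19 after either (adjusted p 0.143 and 0.136, limma), and without vehicle library 1 or 2 the call was lost as well (adjusted p 0.291 and 0.264, limma). In A375 tumours NRAS stood at 2263 to 2643 with vehicle and 2313 to 2597 with drug, a change of -0.03 ± 0.07, which became -0.29 with equal totals (adjusted p 0.00284, limma).

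BRAF, the target of vemurafenib in its mutant form, did not pass in any drug comparison with the values as deposited. In A375 tumours its libraries stood at 120.3, 147, 141 and 124 normalised reads with vehicle and at 113, 125, 127 and 135 with drug, and the change was -0.09 ± 0.12, or -0.35 with equal totals (adjusted p 0.0222, limma). In Colo800 it stood at 199 and 196 against 224 and 217 with drug, without overlap, and its change of 0.16 ± 0.10 passed only with quantile normalisation (0.28, adjusted p 0.0203) or equal totals (0.30, adjusted p 0.0116, limma). In A375 cultures it was at 158, 183 and 133 with vehicle, 162, 124 and 95.9 at 6 h and 184, 140.4 and 178 at 48 h, and all 3 groups overlapped. In UACC62 the drug libraries stood at 120.1 and 232 against 199 and 203 with vehicle, a wide gap within 1 group. Without the second of these drug libraries BRAF changed by -0.74. In that fit 1 library stands for the drug group and is assumed to vary like the others.

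ARAF rose in the Colo800 and UACC62 cultures. It went from 936 and 919.8 normalised reads to 1082 and 1009 in Colo800, by 0.17 ± 0.05 (adjusted p 0.00845, limma), and without the first drug library by 0.12 (adjusted p 0.118, limma). With equal totals the Colo800 change was 0.32. In UACC62 it went from 568 and 592 to 778.5 and 723, by 0.37 ± 0.10 (adjusted p 0.0150, limma). That call was lost without either vehicle library (adjusted p 0.248 and 0.165, limma). In A375 tumours ARAF stood at 1457 to 1633 with vehicle and 1693 to 1778.5 with drug, without overlap, and its change of 0.15 ± 0.07 just missed the threshold (adjusted p 0.0552, limma). With equal totals the direction turned, to -0.11 (adjusted p 0.162, limma), and the libraries overlapped, at 107 to 127 per 1000000 with vehicle and 104 to 114 with drug. SYN1, which overlaps ARAF, passed in no comparison in which it was tested.

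KSR1 had the largest log2 change of any member in Colo800 and in UACC62 cultures. In Colo800 it stood at 138 and 126 normalised reads with vehicle and at 304 and 315 with vemurafenib, 2.35 times the vehicle mean. The change was 1.23 ± 0.10 (adjusted p 5.58e-09, limma). In UACC62 it rose from 82.2 and 107 to 137 and 226, by 0.90 ± 0.24 (adjusted p 0.0125, limma). The drug libraries of UACC62 lay apart from each other, and without the second one the change was 0.54. In A375 cultures KSR1 was at 34.6, 68.3 and 48.9 with vehicle and at 107, 64.0 and 62.9 at 48 h; the groups overlapped, and the change of 0.62 ± 0.30 did not pass (adjusted p 0.112, limma).

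In A375 tumours KSR1 stood at 59.3, 48.5, 43.3 and 23.3 with vehicle and at 34.3, 38.6, 45.5 and 51.5 with drug, and the change was 0.02 ± 0.25. In H3122 with crizotinib it went from 189 and 168 to 155 and 139.5, without overlap, but its change of -0.28 ± 0.14 did not pass (adjusted p 0.120, limma). Whether KSR1 responds differently in H3122 and the melanoma lines, or in cultures and tumours, was not tested, since these sit in separate tables.

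MAP2K1 fell in 4 of the 6 drug comparisons outside A375R tumours. In A375 tumours its 4 vehicle libraries stood at 1047, 1198, 1122 and 1339 normalised reads and its 4 drug libraries at 766, 659, 596 and 638. All drug libraries lay below all vehicle libraries. The log2 change was -0.82 ± 0.09 (adjusted p 6.89e-07, limma). In A375 cultures MAP2K1 went from 1139, 1243 and 1382 with vehicle to 943, 931 and 1206 at 6 h, and to 689, 863 and 907 at 48 h. The 6 h libraries overlapped with vehicle, whereas the 48 h libraries lay below both, and the fall at 48 h was -0.62 ± 0.15 (adjusted p 0.0052, limma). It passed in all 19 settings tried, and in all 15 in the tumours.

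In Colo800, MAP2K1 stood at 1927 and 1851 with vehicle and at 1458 and 1445 with vemurafenib, without overlap. The change was -0.38 ± 0.05 (adjusted p 5.74e-07, limma), or -0.23 with libraries scaled to equal totals. In H3122, MAP2K1 fell with crizotinib as well, from 786 and 794 to 613 and 496, by -0.52 ± 0.11 (adjusted p 0.00246, limma). That call was lost without the second crizotinib library (adjusted p 0.0607). SNAPC5, a gene that overlaps MAP2K1, fell in H3122 too, by -0.46 ± 0.11 (adjusted p 0.00516, limma). The counting strand is not stated and the kit does not mark strand, so reads of the overlapping stretch cannot be told apart; in the other comparisons with vemurafenib SNAPC5 did not pass. In UACC62, MAP2K1 was at 899 and 819.7 with vehicle and 753 and 825 with vemurafenib, the groups overlapped, and the change of -0.12 ± 0.11 did not pass.

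No fall of MAP2K2 passed the test in any comparison. It rose in A375 tumours, from 1615, 1699, 1360.4 and 1808 normalised reads to 2363, 2099.5, 2245 and 2163, without overlap. The change was 0.46 ± 0.08 (adjusted p 0.000147, limma) and only 0.19 with libraries scaled to equal totals, a scaling that moved the median of all genes by -0.26 there. In UACC62 it rose from 2389.7 and 2375 to 3779 and 3103, by 0.52 ± 0.11 (adjusted p 0.00357, limma). In Colo800, its libraries stood at 1505 and 1555 with vehicle and at 1495 and 1531 with drug, a change of -0.02 ± 0.05. In A375 cultures, MAP2K2 was at 861, 1098 and 1560.0 with vehicle and at 1115, 1464 and 1590.1 at 48 h; the groups overlapped, and the change of 0.27 ± 0.26 did not pass.

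Within a library, MAP2K2 over MAP2K1 was 1.38 ± 0.138 in vehicle and 3.36 ± 0.302 in vemurafenib-treated A375 tumours. In A375 cultures the ratio was 0.923 ± 0.190 with vehicle and 1.69 ± 0.0681 at 48 h. It was 2.78 ± 0.169 and 4.39 ± 0.891 in UACC62, 0.811 ± 0.0420 and 1.04 ± 0.0246 in Colo800, and 1.32 ± 0.119 and 1.90 ± 0.0482 in H3122. In these 5 comparisons, at 48 h for A375 cultures, all drug libraries lay above all vehicle libraries. The same held in mixed A375R tumours, at 2.25 ± 0.108 and 2.84 ± 0.217. In A375R tumours grown alone, at 2.57 ± 0.277 and 2.32 ± 0.434, drug and vehicle libraries overlapped. A375 cultures at 6 h, at 1.25 ± 0.271, also overlapped with vehicle. These ratios were not tested, and how often the ratio of other gene pairs lay apart was not counted.

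MAPK3 rose in A375 tumours, from 1276, 1198, 1055.5 and 1233 normalised reads to 1806, 1895.5, 1689.8 and 1882, without overlap. The change was 0.61 ± 0.08 (adjusted p 2.21e-06, limma), or 0.35 with equal totals. It rose in Colo800 from 785 and 769.6 to 928 and 1038, by 0.34 ± 0.06 (adjusted p 6.42e-05, limma). In A375 cultures, MAPK3 stood at 491, 716 and 636 with vehicle and at 526, 854 and 806 at 48 h, the groups overlapped, and the change was 0.23 ± 0.19. In UACC62 (0.14 ± 0.12) and H3122 (0.21 ± 0.12) its libraries overlapped and it did not pass. With equal totals its libraries lay apart in both: the change was 0.26 in UACC62 (adjusted p 0.0798, limma) and passed in H3122, at 0.33 (adjusted p 0.0351, limma), from 39.9 and 47.2 per 1000000 to 50.5 and 59.3.

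**Figure D5:**
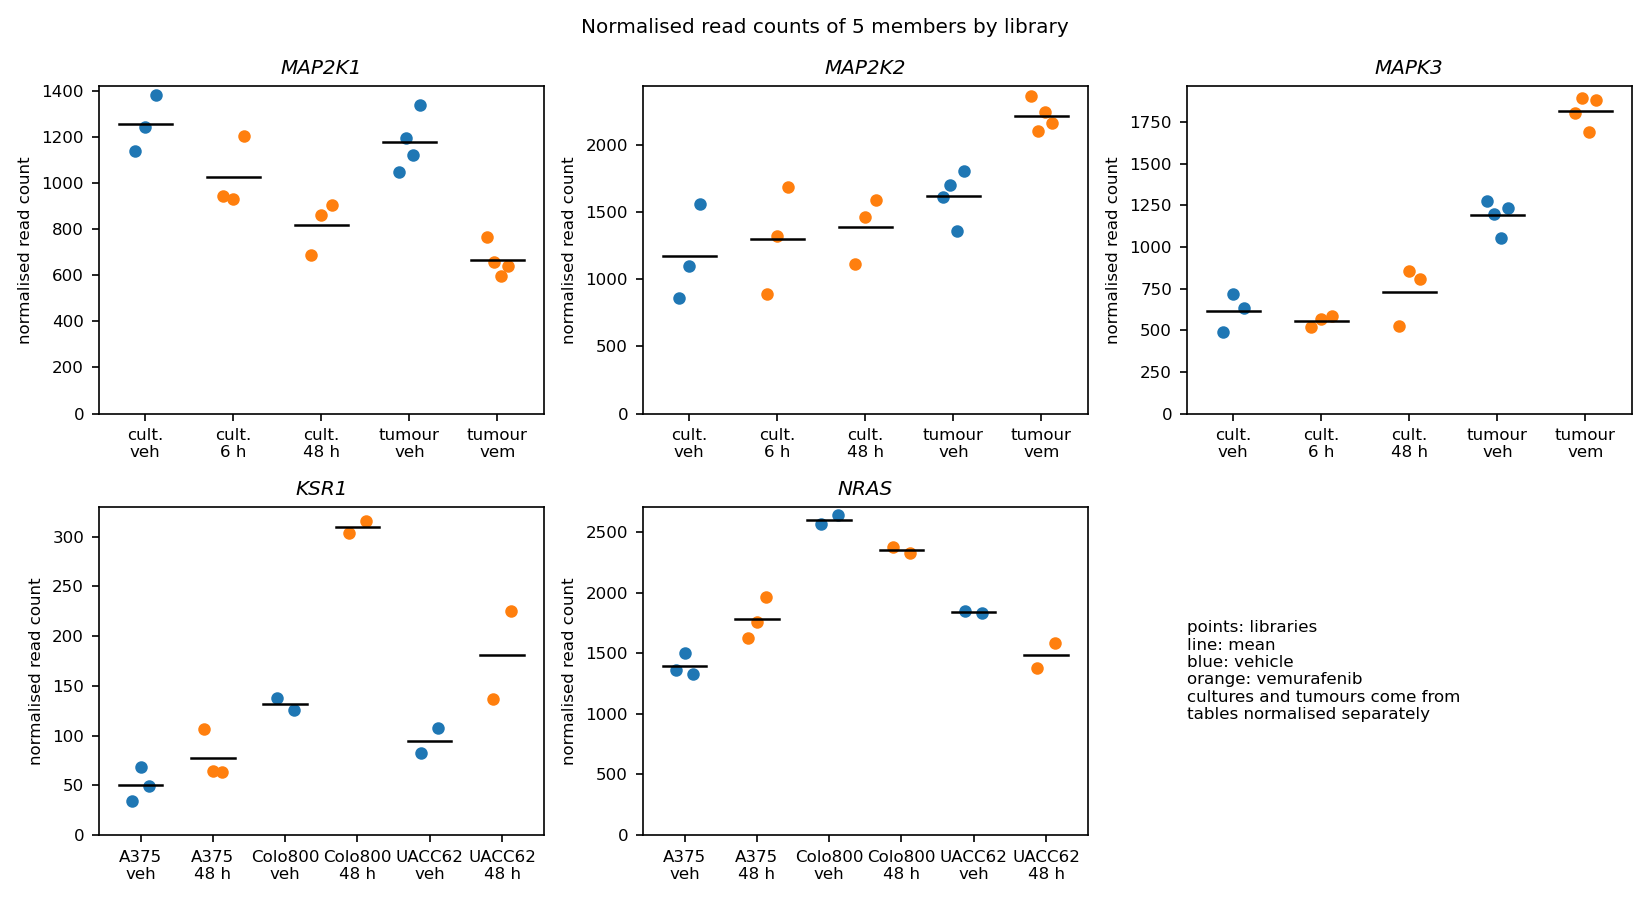
Normalised read counts of MAP2K1, MAP2K2 and MAPK3 in A375 cultures and tumours, and of KSR1 and NRAS in 3 melanoma cultures, are plotted by library (blue, vehicle; orange, vemurafenib), with the mean as a line. In A375 tumours MAP2K1 falls to 596 to 766 while MAP2K2 and MAPK3 lie above every vehicle library.

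In A375R tumours no member passed with vemurafenib. Grown alone, 0 of 7 passed by limma, edgeR and DESeq2, beside 0.792% of all genes at an adjusted p under 0.05 by limma. At an unadjusted p under 0.05 (limma) there was 1, BRAF. Mixed with A375 cells, 0 of 7 passed by the same 3 tools, beside 3.48% of all genes at an adjusted p under 0.05 by limma. At an unadjusted p under 0.05 (limma) there were 2, BRAF and MAP2K2. The shares of all genes at an unadjusted p are not given here, so these counts are no result about the members. MAP2K1 stood at 2155 to 2577 normalised reads with vehicle and 2158 to 2683 with drug when alone, and at 1847 to 2572 and 2144 to 2371.5 when mixed; its changes were 0.01 ± 0.12 and 0.02 ± 0.12. MAPK3 changed by 0.12 ± 0.09 alone and -0.06 ± 0.09 mixed, and KSR1 by 0.01 ± 0.28 and -0.32 ± 0.28. NRAS stood at 4126 to 4882 in mixed vehicle and 3696 to 4106 in mixed drug tumours, without overlap, with a change of -0.20 ± 0.11 that did not pass (adjusted p 0.294, limma). ARAF stood at 2732 to 2738 with vehicle and 2743 to 3204 with drug in tumours of A375R alone, again without overlap and without passing (0.09 ± 0.11). Whether the response of MAP2K1 or MAPK3 differs between A375R and A375 tumours was not tested, since the tables were normalised separately.

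Mixed vehicle tumours had less BRAF than those of A375R alone. BRAF stood at 884, 913 and 892 normalised reads alone and at 636, 618 and 735 mixed. The groups did not overlap, and BRAF was the only member of 7 to pass, beside 3.30% of all genes, with a change of -0.44 ± 0.11 (adjusted p 0.0344, limma). It passed in 16 of 22 settings. With equal totals the change was -0.20 (adjusted p 0.233, limma), a scaling that moved the median of all genes by 0.24. NRAS was then the 1 member to pass (0.47, adjusted p 0.0320, limma), beside 1721 of 13755 genes, although its libraries overlapped as deposited. For BRAF as deposited, leaving out alone library 1, 2 or 3 gave an adjusted p of 0.111, 0.0860 and 0.128 (limma). Leaving out mixed library 1 or 2 gave 0.155 and 0.0691 (limma).

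SOX10 and S100B, genes of the melanocyte lineage that A375 cells express, moved with this difference. With libraries scaled to equal totals, SOX10 was at 2.75 ± 1.02 per 1000000 in A375R alone, 26.2 ± 10.9 in mixed and 59.2 ± 12.4 in A375 tumours, all on vehicle (n = 3, 3 and 4). In mixed tumours with vemurafenib it was at 3.82 ± 2.90. Of the 8 melanocyte genes, 4 were tested in A375R tumours. SOX10 and S100B rose in mixed against single vehicle tumours, and none fell by the test. MITF, also on the list, did not pass. It stood at 270 to 686 normalised reads alone (mean 458) and at 351 to 399 mixed (mean 372), with overlap. The summed level of the list was 11.8 to 21.9 per 1000000 alone and 30.5 to 54.1 mixed, with TYR and DCT at 0 in both. KRT7, an epithelial keratin, was at 25.7 ± 3.20 per 1000000 alone, 28.1 ± 3.99 mixed and 2.98 ± 0.293 in A375 tumours. Of 6 leukocyte genes only CD68 was tested, and it changed by -1.05 ± 0.20 (adjusted p 0.00867, limma). That list summed to 214 to 263 per 1000000 alone and 119 to 159 mixed, and PTPRC was at 0 in the mixed ones. In cultures of cell lines on vehicle the list also summed to 106 to 119 (Colo800) and 29.3 to 73.3 (A375), so it does not mark leukocytes alone. The part of RNA from A375 or other cells in the BRAF difference was not tested.

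With vemurafenib, BRAF was at 689.5, 724 and 824 alone and at 733, 772 and 846 mixed, so the groups overlapped. Between mixed and alone, 0 of 7 members passed by limma, edgeR or DESeq2, beside 0.240% of all genes at an adjusted p under 0.05 by limma. At an unadjusted p under 0.05 (limma) there were 0. The drug effect on BRAF went down alone (-0.27 ± 0.11, all drug libraries below all vehicle libraries) and up in mixed tumours (0.24 ± 0.11), neither passing. The test of that difference gave 0.51 ± 0.15 for BRAF (adjusted p 0.0747, limma) and 0.51 ± 0.17 for MAP2K2 (adjusted p 0.108, limma). It passed for 0 of 7 members by limma and edgeR, beside 2.89% of all genes by limma. At an unadjusted p under 0.05 (limma) there were 2, and the share of all genes at that level is not given here. By DESeq2 it passed for BRAF alone (adjusted p 0.0348), beside 887 of 13755 genes. With equal totals the difference shrank to 0.14 for BRAF (adjusted p 0.550, limma) and 0.13 for MAP2K2 (adjusted p 0.539, limma). On that scale MAPK3 (-0.56, adjusted p 0.0188, limma) and NRAS (-0.64, adjusted p 0.0224, limma) passed, beside 3685 of 13755 genes. MAP2K2 stood at 4378, 5631 and 4886.5 in mixed vehicle tumours, at 6618, 5992 and 6357 in mixed drug tumours, and at 6163, 6227 and 6119.9 in tumours of A375R alone. Its mixed vehicle libraries lay below all those of A375R alone, and the change of -0.32 ± 0.12 did not pass (adjusted p 0.156, limma).

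Other genes of the pathway were read as lists. Medians of all genes in the drug comparisons lay between -0.01 and 0.01. RRAS, a RAS-related GTPase, rose with vemurafenib in A375 cultures (1.24 ± 0.27), Colo800 (0.90 ± 0.12), UACC62 (0.80 ± 0.11) and A375 tumours (1.48 ± 0.08), and fell with crizotinib in H3122 (-1.11 ± 0.16). HRAS, a classical RAS gene, fell in A375 cultures at 48 h (-0.80 ± 0.19) and in Colo800 (-0.55 ± 0.09).

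Of 14 genes that activate RAS, such as adaptors and exchange factors, 6 rose and none fell of 13 tested in A375 cultures at 48 h (median 0.30), 6 rose and 4 fell of 14 in Colo800 (0.06), and 4 rose and 3 fell of 13 in UACC62 (-0.0077). In H3122, 3 rose and 4 fell of 14 (-0.14), and in A375 tumours 6 rose and 2 fell of 13 (0.46). The shares of all genes that passed in these 5 comparisons were 50.0%, 73.3%, 56.5%, 46.1% and 68.3%, and they stand beside the counts of the next lists too; the activators passed about as often. RASGRP3, an exchange factor, rose by 5.97 ± 0.26 in A375 cultures and by 2.65 ± 0.15 in UACC62, and GAB2, an adaptor, by 1.87 ± 0.13 in A375 cultures and 2.10 ± 0.10 in A375 tumours. Of 11 genes that inhibit RAS, 4 fell and 2 rose in A375 cultures at 48 h (median -0.08), 6 of 10 tested fell and 4 rose in Colo800 (-0.47), 5 of 10 fell and 2 rose in UACC62 (-0.41), 4 of 10 fell and 1 rose in H3122 (-0.20), and 7 of 11 fell and 2 rose in A375 tumours (-0.40). SPRED2, which keeps RAS inactive through NF1, fell by -1.88 ± 0.05 in Colo800, -1.42 ± 0.11 in UACC62, -0.69 ± 0.13 in A375 cultures at 48 h and -1.29 ± 0.10 in A375 tumours.

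Of 25 regulators and scaffolds of RAF and MEK, 10 fell and 2 rose of 24 tested in A375 cultures at 48 h (median -0.24), 15 fell and 5 rose of 25 in Colo800 (-0.20), and 10 fell and 7 rose of 24 in UACC62 (-0.14). In H3122, 14 fell and 5 rose of 25 (-0.26), and in A375 tumours 8 fell and 7 rose of 25 (-0.0024). HSP90AB1, a chaperone that RAF kinases depend on, fell in A375 cultures (-1.01 ± 0.11), Colo800 (-0.99 ± 0.04) and UACC62 (-1.29 ± 0.08), and rose in A375 tumours (0.78 ± 0.08). PEBP1, which binds RAF and keeps it from MEK, rose in Colo800 (0.80 ± 0.04), UACC62 (1.12 ± 0.10) and H3122 (1.46 ± 0.14). Of 7 kinases downstream of ERK, 4 fell and none rose in A375 cultures at 48 h (median -0.85), 2 fell and none rose in H3122 (-0.16), and 4 fell and 3 rose in A375 tumours (-0.24). In Colo800 and in UACC62 2 fell and 3 rose, with medians above 0 (0.13 and 0.30). RPS6KA3, which encodes a ribosomal S6 kinase, fell in A375 cultures at 48 h (-0.91 ± 0.20), Colo800 (-0.89 ± 0.04), UACC62 (-1.70 ± 0.14), H3122 (-0.28 ± 0.09) and A375 tumours (-0.68 ± 0.07).

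As a description, genes were ranked by how their log2 values followed each member over all 41 libraries after the mean of each table was subtracted, among 9481 genes with a mean of at least 50 in every table. These libraries share tables and drug groups, so no p is given. MAP2K1 was followed most closely by REXO2 (Pearson's r 0.90), NUDT5 and TFRC (both 0.88). MAP2K2 was followed by BRI3 and VAT1 (both 0.87) and SLC25A4 (0.85), and MAPK3 by VEGFB (0.87), MOSPD3 (0.85) and VPS28 (0.84). KSR1, itself under that mean in some tables, was followed by KIAA2026 (0.79), KIAA1432 (0.77) and FYCO1 (0.76). For ARAF the closest were PMVK, VAC14 (both 0.77) and SLC35A4 (0.76), for NRAS STYX (0.76), SGK223 (0.74) and GFPT1 (0.72), and for BRAF RSF1 (0.70), XRN1 (0.68) and TEAD1 (0.66).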

How the data were processed

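The authors deposited 6 tables of values by gene symbol, a signal that behaves as normalised reads: within each library 100.0% of values lay within 0.1 of a whole multiple of the same step, which gives the recovered depth. Named in the submitters' processing notes, without roles, are DESeq 1.18.0, HTSeq 0.5.4 and STAR 2.3.0e, with builds hg19 and mm9. The treatment of mouse reads and filters are not given in the sources used here. Libraries were made with a TruSeq kit, per the labels' protocols.

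Values were tested within each table as log2(value + 1) in limma 3.58.1 (R 4.3.3) with a mean-variance trend and every group of a table fitted together, two-sided, Benjamini-Hochberg adjustment over genes with a mean of at least 10, and a threshold of 0.05. Where no library of a table had a step near 1, at which recovery was not claimed (A375 cultures and A375R tumours), edgeR 4.0.16 and DESeq2 1.42.0 were run on them as alternatives. The limma step was tested on simulated data. Named were all 7 members, up to 2 genes per direction of each pathway list by smallest adjusted p, and the 3 genes most like each member. The members and lists were chosen with earlier results of these data known. Some genes of the lists are not reported here. Samples with the same number deviated together in A375 cultures for 6 h against vehicle (correlation 0.310 to 0.567) and 48 h against 6 h (0.197 to 0.436). The numbers were therefore taken to pair samples there. For 48 h against 6 h, however, number 2 (0.197) had its best match in number 3 and not in its own number.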

Additional observations from a re-analysis of the deposited data

Results flagged for a closer look

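NRAS moved in opposite directions in melanoma cultures under the same drug for 48 h, with the values as deposited: all A375 libraries with vemurafenib lay above all A375 vehicle libraries, and all Colo800 and UACC62 libraries with vemurafenib lay below theirs. The log2 change in A375 minus that in Colo800 was 0.49, and that in A375 minus that in UACC62 was 0.66. With equal totals the Colo800 libraries overlapped, at 176 and 182 per 1000000 with vehicle and 181 and 178 with drug, and the change there was 0.0023. The difference was not tested, since the lines sit in separately normalised tables, and dose differs with the line.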

How the results depend on the processing

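Of 84 results on single members, 17 passed, 9 of them in every setting run; of the 67 that did not pass, 48 passed in none. The number of members that passed stayed the same, or within 1.5 times, except as follows. From 6 h to 48 h in A375 cultures, 1 passed; it was 0 in a fit of the 2 groups alone, 0 without a filter, 3 with the replicate block and 0 to 2 leaving out 1 library. In H3122, 1 passed; it was 3 with crossed numbers as a block (chosen after seeing the data), 2 after quantile normalisation (with KSR1), 2 with equal totals (with MAPK3) and 0 to 2 leaving out 1 library. In A375 tumours, 3 passed, and 5 with equal totals (with BRAF and NRAS, lower). For the difference of drug effects in A375R tumours, 0 passed; it was 1 by DESeq2 (BRAF), 2 with equal totals (MAPK3 and NRAS) and 0 to 1 leaving out 1 library. Leaving out 1 library gave 1 to 3 for A375 at 48 h, 2 to 7 for UACC62 and 0 to 1 for mixed against single vehicle tumours. With equal totals, MAP2K2 in Colo800 turned from -0.02 to 0.13 (adjusted p 0.0174, limma) and NRAS to 0.0023. The cause was not tested.

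The log2 ratio of A375R to A375 tumours under median-ratio scaling was 2.07 for BRAF, 0.13 for ARAF, 0.35 for MAP2K1, 1.24 for MAP2K2, -0.0223 for MAPK3, -0.92 for KSR1 and -0.0796 for NRAS. With mixed in place of single tumours (chosen after seeing the data) it was 1.09 for BRAF, -0.43 for ARAF, -0.49 for MAPK3 and -0.38 for NRAS.

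Over all genes, calls in A375 cultures at 6 h went from 608 to 1462 with the replicate block, 1045 by DESeq2 and 309 to 384 leaving out 1 of 3 libraries. In A375R tumours alone, the 109 calls were 298 with the block, 748 by DESeq2, 541 in a fit of the 2 groups, 1228 with equal totals, 14 without a filter and 1 to 326 leaving out 1 of 9 libraries. In mixed tumours, 478 were 958, 226 and 1234 by DESeq2, the 2 groups and equal totals, and 96 to 256 leaving out 1 of 3. Mixed against alone with vehicle, 454 were 870 by DESeq2, 297 with a filter at 50, 1721 with equal totals and 109 to 168 leaving out 1 of 3; with drug, 33 were 65 with the block, 152 by DESeq2, 13 by edgeR, 8, 11, 10 and 3 for the 2 groups, no filter, quantile and equal totals, and 1 to 50 leaving out 1 of 9. The difference of drug effects, 397, was 887 by DESeq2, 185 without a filter, 3685 with equal totals and 10 to 222 leaving out 1 of 8. Equal totals moved the median of all genes by over 0.1 in these tables (from -0.40 to 0.24), and the split of calls with it: 3028 higher and 7040 lower in A375 tumours against 4815 and 4788.

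Besides adding MAP2K1 and MAPK3 from 6 h to 48 h, the replicate block made MAP2K2 pass in A375 cultures at 48 h (0.27, adjusted p 0.0485, limma), where the correlations, 0.028 to 0.402, fell short of pairing, and it changed no call on a member in the other comparisons; in tables where the numbers do not pair samples it is only a shared number. The correlation in H3122 was -0.209. edgeR and DESeq2 were not run in the 4 other tables, where 1 library each had a step of 0.999 to 1.01, too near 1 for the recovery rule used, although its values were whole multiples too. KSR1, at 23.3 to 59.3 normalised reads in tumours, has the largest error, and groups of 2 libraries limit every culture call outside A375.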
